A study of Rattus norvegicus with 8 samples.

Results

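Glutathione transferases and the enzymes that work beside them were followed in untreated trigeminal nerve of 4 rat strains. The set of 10 genes was chosen for a role in handling carcinogens and oxidants, out of 13337 genes named on the array. It holds the pi class gene Gstp1, the mu class genes Gstm1 and Gstm2, the theta class genes Gstt1 and Gstt2, the omega class gene Gsto1, the membrane-bound transferase gene Mgst1, and Nqo1, Gclc and Hmox1. The platform annotation gives them 12 of 22523 probes, 3 of which belong to Gstp1 and 1 to each other gene.

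RNA was taken from whole trigeminal nerves of untreated 85-day-old rats, pooled over animals, and hybridised to Illumina RatRef-12 bead arrays. BDIX and BDIV are inbred strains. The other groups, BDIX.BDIV-Mss4a (Mss4a below) and BDIX.BDIV-Mss4d (Mss4d below), are congenic and by their names hold a BDIV segment in a BDIX genome. BDIX rats are known to be susceptible, and BDIV rats resistant, to nerve tumours caused by ethylnitrosourea, an alkylating carcinogen to which none of these animals was exposed. Each strain gave 1 female and 1 male pool, so that n = 2 arrays per strain, of opposite sex. How many rats were pooled is not given in the sources used here.

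Transferases of this family join the tripeptide glutathione to reactive electrophiles, which can then be exported from the cell. Gclc encodes the catalytic subunit of glutamate-cysteine ligase, the rate-limiting enzyme of glutathione synthesis, Nqo1 encodes a quinone reductase, and Hmox1 encodes the inducible haem oxygenase. Many genes of this kind are known to be induced through the transcription factor NRF2, encoded by Nfe2l2, which binds antioxidant response elements when its inhibitor KEAP1 releases it.

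In nerve, Gclc and Gstm2 were lower in BDIV than in each of the other strains, and Nqo1 was higher in both congenic strains than in BDIX. Gstt1 was higher in both congenic strains than in BDIV, and higher in Mss4a than in BDIX. With arrays scaled to their medians Gstt1 did not pass in Mss4a against BDIX (0.50) or BDIV against Mss4a (-0.38). It still passed in BDIV against Mss4d (-1.16). Of the strain differences that passed, only that of Gclc between BDIV and Mss4a did so whichever array was left out. The other genes, Gstm1, Gstt2, Gsto1, Mgst1 and Hmox1, passed no strain comparison, and the 2 measured probes of Gstp1 did not move together. No member passed between the sexes.

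All 10 genes were measured: 11 of the 12 probes were above background, at a detection p under 0.05, on 8 of 8 arrays. The third Gstp1 probe, designed on an expressed sequence tag, was not well above background on any array (signal between 61.7 and 123) and was not tested. Levels below are log2 values after background correction and quantile normalization, differences are log2 values of the first strain minus the second ± the standard error from limma, and a difference is said to rise or fall only at a Benjamini-Hochberg adjusted p under 0.05 over the 13114 tested probes. Comparisons with BDIX share the BDIX arrays and are not independent of each other.

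The arrays differed in brightness, with a median signal between 80.2 and 145, and both pools of a strain were alike in this, so that brightness and strain cannot be told apart. Between 10 and 11 of 11 myelinating Schwann cell markers and between 12 and 13 of 14 sensory neuron markers were above background on every array. Other tissue was also present in some pools: 6 of 11 nasal, olfactory and salivary markers were above background on each Mss4a array against 1 or 2 on the others, and of 8 thyroid markers 7 were above background in the Mss4d male pool, 4 in the Mss4d female pool and 1 or 2 elsewhere. In whole nerve, fewer cells of a type and less RNA per cell cannot be told apart.

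**Figure D1:**
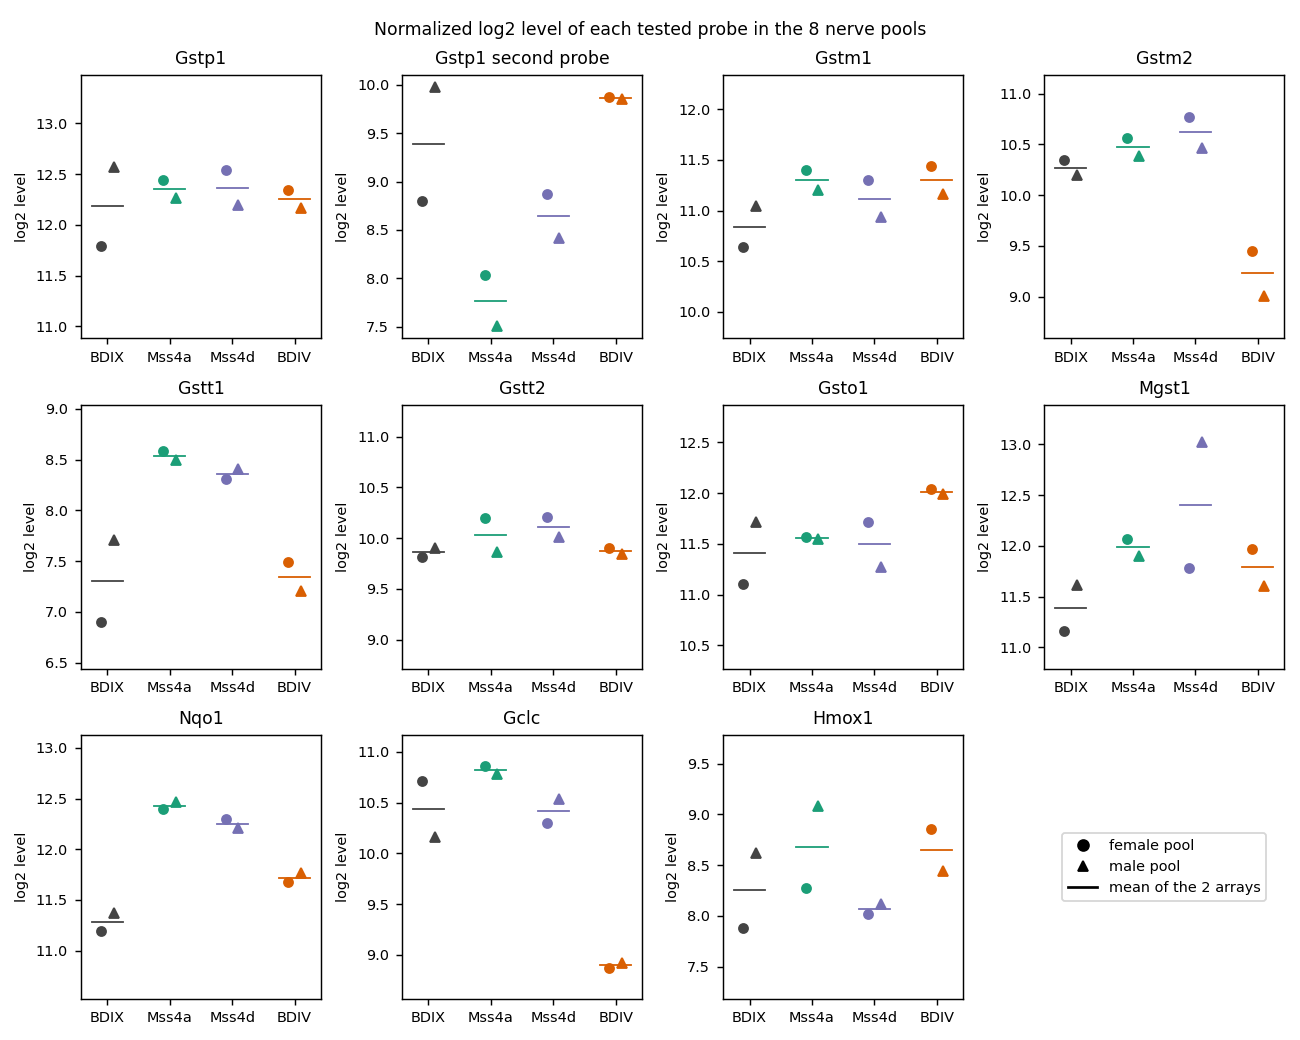
Normalized log2 level of the 11 tested probes (vertical axis, 1 panel per probe) in the 4 strains (horizontal axis), with circles for female pools, triangles for male pools and lines for the mean of both. BDIV stands below the other strains in the panels of Gclc (8.87 and 8.92) and Gstm2 (9.45 and 9.01), and both congenic strains stand above BDIX in the panel of Nqo1.

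A promoter window was available for 7 of the 10 members in RefSeq, on the GRCr8 assembly of the BN strain, from 250 bases before to 50 bases after 1 annotated start site. That site is the outer bound of the gene for Nqo1 and Mgst1. It lies inside the gene for the 5 others, by 537 bases in Gstp1, 225 in Gclc, 45 in Gstm2, 154 in Gsto1 and 2624 in Gstm1, so that sequence before the outermost start is shown only in part or not at all for these. The promoters of Gclc, Gstm2 and Nqo1 are shown because these genes differed between strains. That of Gstp1 is shown because its window, alone of the 7, holds the antioxidant response element core TGACNNNGC. Sequence further upstream was not searched for any member. Capitals mark matches, on either strand, to TGACNNNGC, to the AP-1 motif TGANTCA and to GCGTG, the core of the element bound by the aryl hydrocarbon receptor. Gstp1 lies on the minus strand with its window at chr1:210769656-210769955, Gstm2 on the minus strand at chr2:198316868-198317167, Gclc on the plus strand at chr8:87510226-87510525 and Nqo1 on the minus strand at chr19:52220218-52220517.
Gstp1: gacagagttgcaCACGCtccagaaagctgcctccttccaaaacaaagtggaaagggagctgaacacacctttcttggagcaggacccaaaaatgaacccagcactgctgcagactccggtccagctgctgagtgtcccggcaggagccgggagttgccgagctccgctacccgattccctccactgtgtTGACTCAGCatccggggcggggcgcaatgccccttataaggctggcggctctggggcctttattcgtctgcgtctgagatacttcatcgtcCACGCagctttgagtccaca
Gstm2: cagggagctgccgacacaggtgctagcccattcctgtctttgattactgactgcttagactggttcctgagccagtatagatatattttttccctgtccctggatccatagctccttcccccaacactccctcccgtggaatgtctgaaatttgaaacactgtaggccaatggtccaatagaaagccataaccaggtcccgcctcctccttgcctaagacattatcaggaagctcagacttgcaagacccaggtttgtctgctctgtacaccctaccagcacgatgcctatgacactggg
Gclc: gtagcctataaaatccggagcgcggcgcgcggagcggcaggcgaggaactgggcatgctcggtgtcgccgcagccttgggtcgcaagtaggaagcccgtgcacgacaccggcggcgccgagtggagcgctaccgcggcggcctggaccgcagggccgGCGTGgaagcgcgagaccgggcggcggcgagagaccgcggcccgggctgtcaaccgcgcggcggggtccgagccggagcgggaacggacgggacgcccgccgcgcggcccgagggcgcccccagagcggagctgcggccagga
Nqo1: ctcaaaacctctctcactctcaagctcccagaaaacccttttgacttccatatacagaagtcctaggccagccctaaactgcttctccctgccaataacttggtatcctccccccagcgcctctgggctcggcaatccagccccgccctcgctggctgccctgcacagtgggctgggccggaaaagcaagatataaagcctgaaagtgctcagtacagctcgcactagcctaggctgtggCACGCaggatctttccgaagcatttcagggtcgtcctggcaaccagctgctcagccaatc

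In the Gstp1 window 1 match to TGACNNNGC began at -61 from that start site and overlapped a TGANTCA match at the same position. The share of all 27457 promoters of this length with such matches was 12.2% for TGACNNNGC, 7.33% for TGANTCA and 31.1% for GCGTG. The windows of Gstp1, Gclc and Nqo1 held the last of these, and TGANTCA stood also in those of Gsto1 and Mgst1, while the windows of Gstm1 and Gstm2 held none of the 3 motifs. These matches describe the letters of the reference strain only, and the sequence in BDIX and BDIV was not analysed here.

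The set contained 1 gene of the pi class, Gstp1, whose enzyme is best known in rat as a marker of early liver tumours. Its brighter probe read 11.79 and 12.58 in the female and male BDIX pools, 12.44 and 12.27 in Mss4a, 12.54 and 12.19 in Mss4d, and 12.34 and 12.17 in BDIV. The BDIX pools gave both the lowest and the highest of these values, and every other pool lay between them. Against BDIX the differences were 0.074 ± 0.29 in BDIV, 0.17 ± 0.29 in Mss4a and 0.19 ± 0.29 in Mss4d, and none passed (limma adjusted p between 0.708 and 0.895).

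The second Gstp1 probe gave a different picture. It read 8.80 and 9.98 in BDIX, 8.03 and 7.50 in Mss4a, 8.87 and 8.42 in Mss4d, and 9.88 and 9.86 in BDIV. Mss4a was low in both pools, and BDIV was as high as the BDIX male pool. This probe fell in Mss4a against BDIX by 1.62 (SE 0.40, limma adjusted p = 0.0455) and was higher in BDIV than in Mss4a by 2.10 ± 0.40 (adjusted p = 0.00960). The fall against BDIX passed in 4 of 7 other settings, and not without background correction (adjusted p = 0.0507), with the authors' values (0.0508) or unfiltered (0.0925). It passed without either Mss4d array, and without any 1 of the other 6 its adjusted p lay between 0.0707 and 0.183, with a difference of -2.38 without the BDIX female and -0.86 without the BDIX male array. BDIV did not pass against Mss4a when the BDIV female (adjusted p = 0.0856), BDIV male (0.0743) or Mss4a male array (0.0509) was left out. Both probes carry the same RefSeq accession in the platform annotation, and a sequence difference under either probe cannot be told apart from expression here.

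The mu class genes Gstm1 and Gstm2 lie close together on chromosome 2 of GRCr8, at 198338005 to 198346007 and 198312179 to 198316962. Gstm2 read 10.35 and 10.19 in the female and male BDIX pools, 10.56 and 10.39 in Mss4a, 10.77 and 10.47 in Mss4d, but 9.45 and 9.01 in BDIV. The BDIV pools lay below all 6 others, and among those both BDIX pools lay below the congenic pools, which overlapped. Gstm2 fell in BDIV against BDIX by 1.04 (SE 0.18, 2.06-fold lower, limma adjusted p = 0.0121), and was lower in BDIV than in Mss4a (-1.25 ± 0.18, adjusted p = 0.00440) and Mss4d (-1.39 ± 0.18, adjusted p = 0.00343). The fall against BDIX did not pass when the BDIV female (adjusted p = 0.119), BDIV male (0.115) or BDIX female array (0.0634) was left out, with differences of -1.16, -0.92 and -1.12. The difference from Mss4a was lost without the BDIV female (0.0515) or BDIV male array (0.0612) and was -0.45 (0.0704) with arrays scaled to their medians, and that from Mss4d was lost without the BDIV male array (0.0576).

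Gstm1 did not share this pattern. It read 10.64 and 11.04 in BDIX, 11.40 and 11.20 in Mss4a, 11.30 and 10.93 in Mss4d, and 11.44 and 11.16 in BDIV. The BDIX female pool was the lowest, and BDIV, Mss4a and Mss4d overlapped. Its differences from BDIX were 0.46 ± 0.23 in BDIV, 0.46 ± 0.23 in Mss4a and 0.27 ± 0.23 in Mss4d, and none passed, although that of BDIV was 0.81 (adjusted p = 0.0453) without the BDIX male array. Mu class genes are close copies of each other, and whether a probe also reads a neighbour was not tested. Whether BDIV differs in sequence under the Gstm2 probe was not tested either.

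The theta class genes Gstt1 and Gstt2 also lie close together, on chromosome 20 at 12856068 to 12873020 and 12819053 to 12822724. Theta class transferases act on small halogenated compounds and epoxides. Gstt1 read 6.90 and 7.71 in the female and male BDIX pools, 8.58 and 8.49 in Mss4a, 8.30 and 8.40 in Mss4d, and 7.49 and 7.21 in BDIV. Both congenic strains were higher in both sexes than either parent strain, and BDIV lay inside the BDIX range. Before normalization the Mss4a signals (250 and 246) were not above those of the BDIX male (252) or BDIV female pool (274). Mss4a pools also held nasal markers and Mss4d pools thyroid markers. The part of either tissue in the Gstt1 values was not tested. Gstt1 rose in Mss4a against BDIX by 1.23 ± 0.28 (2.35-fold, limma adjusted p = 0.0364), and the like difference of 1.05 ± 0.28 in Mss4d did not pass (adjusted p = 0.0735).

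BDIV was lower than Mss4a (-1.19 ± 0.28, adjusted p = 0.0183) and Mss4d (-1.01 ± 0.28, adjusted p = 0.0338) in Gstt1. With arrays scaled to their medians the rise of Mss4a over BDIX was 0.50 (adjusted p = 0.166) and the difference of BDIV from Mss4a -0.38 (adjusted p = 0.249). The rise in Mss4a was past the threshold without the BDIX male or either Mss4d array, and without any 1 of the others its adjusted p lay between 0.0736 and 0.136. With all probes unfiltered the rise in Mss4a did not pass (adjusted p = 0.0608), nor did the difference of BDIV from Mss4d (0.0664), which was also lost with the authors' values (-0.94, 0.0524). Without either BDIV or either Mss4d array the difference of BDIV from Mss4d did not pass (adjusted p between 0.0906 and 0.257), and that from Mss4a was lost without the BDIV female (0.0712), BDIV male (0.156) or Mss4a female array (0.0956). Gstt2, by contrast, stayed within a range of 9.82 to 10.21 over the 8 pools, the narrowest of the 11 tested probes, and its differences from BDIX were between 0.015 and 0.25.

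Gsto1 encodes an omega class transferase known for reducing dehydroascorbate and arsenic compounds. It read 11.11 and 11.71 in BDIX, 11.57 and 11.55 in Mss4a, 11.72 and 11.27 in Mss4d, and 12.04 and 11.99 in BDIV. Both BDIV pools were above all the others. The difference from BDIX was 0.61 ± 0.26 and did not pass (limma adjusted p = 0.143), and it was 0.99 (adjusted p = 0.0447) without the BDIX male array.

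Mgst1, the transferase of the endoplasmic reticulum and outer mitochondrial membrane, read 11.16 and 11.61 in BDIX, 12.07 and 11.90 in Mss4a, and 11.97 and 11.61 in BDIV. In Mss4d it was 11.78 in the female but 13.03 in the male pool, the highest of the 8. The difference of Mss4d from BDIX was 1.02 ± 0.37 and did not pass (limma adjusted p = 0.143). The same male pool held the most thyroid RNA, with a summed linear level of 8 thyroid markers of 48817 against 5231 in the Mss4d female pool and between 251 and 367 elsewhere, and the part of that tissue in the Mgst1 value was not tested.

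Gclc showed the largest strain difference among the probes that represent the 10 genes. It read 10.71 and 10.17 in the female and male BDIX pools, 10.87 and 10.78 in Mss4a, 10.30 and 10.54 in Mss4d, and 8.87 and 8.92 in BDIV. The BDIV pools agreed closely and lay more than 1 log2 unit below every other pool. Gclc was read by 1 probe, and whether BDIV differs in sequence under it was not tested. Gclc fell in BDIV against BDIX by 1.54 (SE 0.23, 2.91-fold lower, limma adjusted p = 0.00890), and it was also lower in BDIV than in Mss4a (-1.93 ± 0.23, adjusted p = 0.00279) and Mss4d (-1.53 ± 0.23, adjusted p = 0.00516).

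Gclc in BDIV against BDIX stood at -1.41 without background correction, -1.32 with arrays scaled to medians and -1.44 with the authors' values. The rest of the 8 other settings keep the normalized values of both strains and cannot move its size. The fall passed under all 8, at between -1.54 and -1.32. It did not pass when the BDIV female (-1.45, adjusted p = 0.119), BDIV male (-1.64, 0.0730) or BDIX female array (-1.24, 0.0607) was left out. The difference from Mss4a passed whichever of the 8 arrays was dropped, the 1 call of 14 for which this held, and that from Mss4d was lost without the BDIV female (0.0642) or BDIV male array (0.0567). Between the congenic strains and BDIX, Gclc did not pass (0.38 ± 0.23 in Mss4a and -0.018 ± 0.23 in Mss4d). Gclm, which encodes the modifier subunit of the same ligase, read 11.06 and 10.96 in BDIV against 10.64 and 10.49 in BDIX and did not pass in any comparison with BDIX.

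Nqo1 ordered the strains differently. It read 11.19 and 11.37 in the female and male BDIX pools, 11.67 and 11.77 in BDIV, 12.30 and 12.21 in Mss4d, and 12.40 and 12.46 in Mss4a. No strains overlapped, and the 2 pools of a strain differed by at most 0.18. Nqo1 rose against BDIX in Mss4a by 1.15 ± 0.18 (2.22-fold, limma adjusted p = 0.0181) and in Mss4d by 0.97 ± 0.18 (1.96-fold, adjusted p = 0.0332). BDIV stood 0.44 ± 0.18 above BDIX, which did not pass (adjusted p = 0.120), and below Mss4a by -0.71 ± 0.18 (adjusted p = 0.0228).

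The rise of Nqo1 in Mss4a was 0.65 (adjusted p = 0.0314) with arrays scaled to their medians, a scaling that moved the median of all probes by -0.37, and the rise in Mss4d was then 1.44, with the median of all probes at 0.25. Without either BDIV array, either Mss4a array or the BDIX female array the rise in Mss4a did not pass (adjusted p between 0.0604 and 0.0805), and without either BDIV, either Mss4d or the BDIX female array the rise in Mss4d did not pass (between 0.0909 and 0.156). Leaving out an array of a strain outside the comparison cannot move the size of the rise. Without a BDIX array or an array of the congenic strain itself, it lay between 1.07 and 1.23 in Mss4a. In the like fits it lay between 0.87 and 1.07 in Mss4d. With the 4 arrays of Mss4d and BDIX alone the rise of 0.97 did not pass (adjusted p = 0.100). The difference of BDIV from Mss4a was 0.021 with arrays scaled to their medians and did not pass without the BDIV female (0.164), BDIV male (0.138), Mss4a female (0.0934) or Mss4a male array (0.0869). Both strains in which Nqo1 rose held markers of other tissue, nasal in Mss4a (6 of 11 above background in each pool) and thyroid in Mss4d (4 and 7 of 8), and the part of either tissue in the Nqo1 values was not tested.

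Hmox1 read 7.88 and 8.62 in BDIX, 8.28 and 9.09 in Mss4a, 8.02 and 8.11 in Mss4d, and 8.85 and 8.44 in BDIV. The strains overlapped except for Mss4d, which lay below Mss4a and BDIV. No comparison passed (limma adjusted p between 0.202 and 0.943). Hmox1 is known to be high in macrophages that clear red cells, and the summed linear level of 8 macrophage markers was 2603 in the BDIX female and 7827 in the BDIX male pool and between 5035 and 7156 elsewhere. Their part in the Hmox1 values was not tested.

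**Figure D2:**
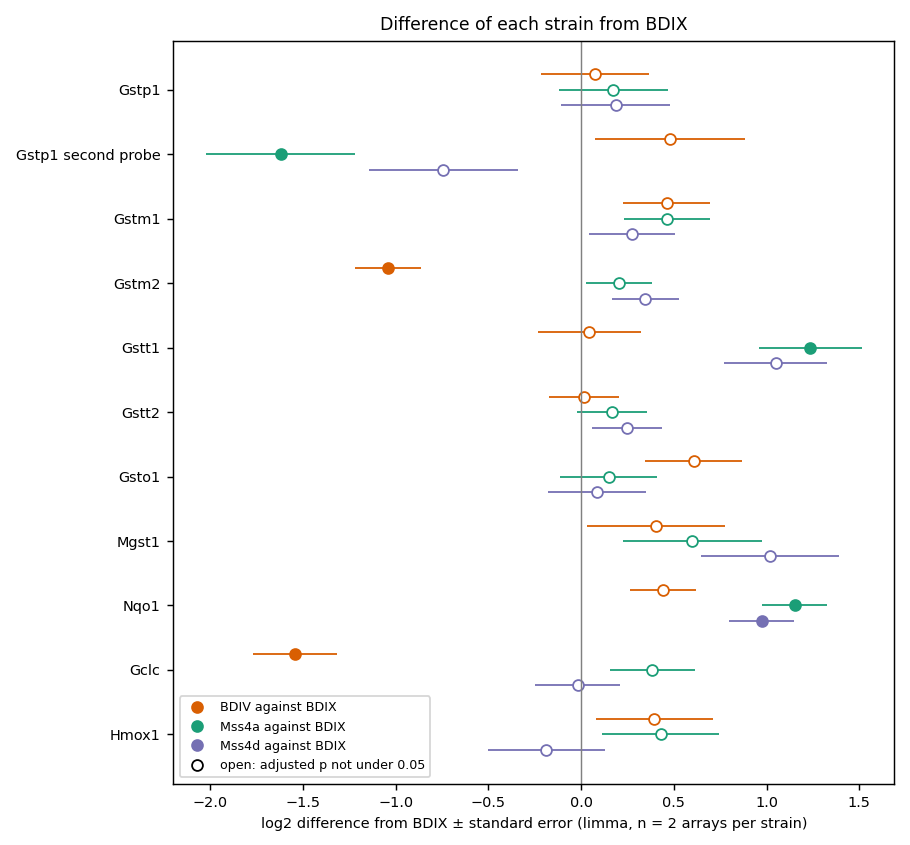
Log2 difference of BDIV, Mss4a and Mss4d from BDIX (horizontal axis) for the 11 tested probes (vertical axis), with bars for the standard error from limma, n = 2 arrays per strain, and filled points for an adjusted p under 0.05. Gclc and Gstm2 are the filled points of BDIV, Nqo1, Gstt1 and the second Gstp1 probe those of Mss4a, and Nqo1 that of Mss4d.

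Counted as genes, 2 of the 10 members fell and 0 rose in BDIV against BDIX, where 21.0% of all tested probes passed (1313 probes higher and 1445 lower). In Mss4a against BDIX 2 rose and 0 fell, with 12.2% of all probes passing (4.78% higher and 7.46% lower). In Mss4d against BDIX 1 rose and 0 fell, with 5.34% (1.38% higher and 3.96% lower). BDIV was lower than Mss4a in 4 members (33.1% of all probes passed, 16.3% higher and 16.8% lower) and lower than Mss4d in 3 (30.0%, 15.1% higher and 14.9% lower). In Mss4a against Mss4d 0 members passed in limma (0 at an unadjusted p under 0.05), with 1.22% of all probes passing (0.297% higher and 0.923% lower). The share of members called was thus near that of all probes in the 3 comparisons with BDIV. The groups did not overlap in 5 members for BDIV against BDIX, beside 66.6% of all probes, in 6 for Mss4a (58.5%) and in 5 for Mss4d (55.6%). The same held in 4 members between Mss4a and Mss4d (57.3%), in 5 between BDIV and Mss4a (75.6%) and in 7 between BDIV and Mss4d (77.1%). The median difference of the members from BDIX was 0.23 in BDIV, 0.41 in Mss4a and 0.26 in Mss4d, beside medians over 9154 genes of -0.040, 0.026 and 0.024. These counts changed when 1 array was left out, and the counts over all probes, given in the last section, changed too. A fit without an array of a strain outside the comparison keeps the size of the difference. It changes only the standard error and the adjusted p. Leaving out either BDIV array or the BDIX female array left 0 members in each comparison with BDIX, as did leaving out either Mss4a array for Mss4a and either Mss4d array for Mss4d. Dropping the BDIX male array gave 4 members in BDIV and 2 in Mss4d. BDIV against Mss4a gave 1 member when either BDIV array was dropped and 2 when the Mss4a female array was. BDIV against Mss4d gave 1 when the BDIV female, 0 when the BDIV male and 2 when the Mss4d male array was dropped. With arrays scaled to their medians the 4 members called in BDIV against Mss4a were 1 lower (Gclc) and 3 higher, Gsto1 (1.23, adjusted p = 0.00875), Gstm1 (0.76) and Gstt2 (0.63), where that scaling put the median of all probes at 0.46. The same scaling gave 9 members lower in Mss4a than in Mss4d, where that scaling put the median of all probes at -0.65.

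The difference between strains was read once in females and once in males, which shows how far the pools agreed. Nqo1 was higher than in BDIX in both sexes, at 1.21 in females and 1.09 in males for Mss4a and 1.11 and 0.84 for Mss4d. Gclc was lower in BDIV than in BDIX by -1.84 in females and -1.24 in males, and Gstm2 by -0.90 and -1.19. Gstt1 was higher in Mss4a than in BDIX by 1.69 in females and 0.78 in males. Male minus female differences over strains were between -0.27 (Gstm2) and 0.31 (Hmox1), and 0 of 10 members passed in limma, where 0.00% of all probes passed and 526 probes had an unadjusted p under 0.05, 0 of them members.

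Cell type markers moved with the low values in BDIV. Of 11 myelinating Schwann cell markers 7 fell and 0 rose in BDIV against BDIX, with a summed linear level of 65673 and 79915 in the BDIV pools against 166421 and 122660 in BDIX. Of 12 fibroblast and perineurium markers 7 fell and 1 rose (80361 and 90234 against 135879 and 123470), of 6 tested endothelial markers 3 fell and 0 rose (5395 and 6370 against 8715 and 7811), and of 10 red cell markers 7 fell and 0 rose (16806 and 23558 against 81677 and 76906). Of 8 tested granulocyte markers 3 fell and 0 rose, and of 7 non-myelinating Schwann cell markers 1 fell and 0 rose. Sensory neuron markers went the other way: 6 of 13 tested rose and 0 fell. Of 8 macrophage, 9 central glia and 5 skeletal muscle markers tested, 1 of each list rose and 0 fell. Of 5 adipocyte, 7 nasal and 4 thyroid markers tested 0 passed. Myelinating Schwann cell markers also fell in Mss4a against BDIX (6 of 11, and 0 rose), where 7.46% of all probes fell and 4.78% rose. Gclc and Gstm2 stood at 0.38 ± 0.23 and 0.20 ± 0.18 in that comparison and did not pass. In Mss4d 2 of the 11 fell and 0 rose. The part of cell make-up in the Gclc and Gstm2 differences was not tested.

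**Figure D3:**
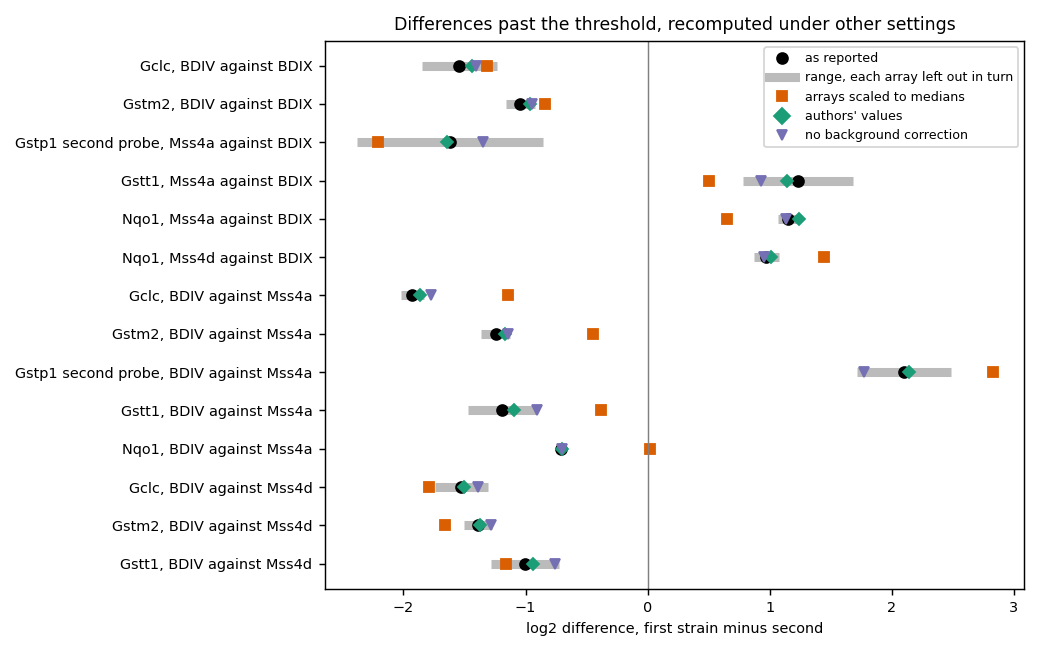
The 14 differences past the threshold (vertical axis) with their log2 value as reported (black), the range over the 8 fits that leave out 1 array (grey bar), and the values with arrays scaled to medians, with the authors' values and without background correction (coloured). All keep their sign in these settings except Nqo1 in BDIV against Mss4a, at 0.021 with arrays scaled to medians.

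The wider detoxification system was read from 10 lists that hold 140 other genes, of which 106 were tested. The part of the nasal tissue in Mss4a pools and of the thyroid tissue in Mss4d pools in the values of these genes was not tested. In BDIV against BDIX 13 rose and 9 fell, or 20.8%, beside 21.0% of all probes. In Mss4a against BDIX 3 rose and 2 fell (4.72%, beside 12.2% of all probes), and in Mss4d 1 rose and 2 fell (2.83%, beside 5.34%). All 30 of these calls kept their sign without background correction, with arrays scaled to medians and with the authors' values, and 20 passed in all 3. They also kept their sign with each array left out, but 0 of the 30 passed in all 8 of those fits. Of the 22 calls in BDIV 0 remained when its female pool was dropped and 1 when its male pool was, and dropping the female or male pool of BDIX left 1 and 14. Of the 5 in Mss4a 0 passed without the Mss4a female or BDIX female array, 1 without the Mss4a male or either BDIV array, 2 without the BDIX male and 3 without either Mss4d array. Of the 3 in Mss4d 0 passed without the Mss4d male or BDIX female array and 1 without either BDIV array.

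Among the other glutathione transferases 1 of 14 tested genes fell in BDIV and 0 rose (median -0.044). This was the mu class gene Gstm4, also on chromosome 2, at 7.76 and 7.65 in BDIV against 9.52 and 9.31 in BDIX (-1.71 ± 0.19, limma adjusted p = 0.00548). Gstm7 stood at -0.48 ± 0.18 in BDIV and 0.69 ± 0.18 in Mss4a, neither past the threshold, and differed between these strains (-1.16 ± 0.18, adjusted p = 0.00530). Gstcd, a gene with a transferase-like domain, rose in Mss4a by 0.81 ± 0.19, but stood at 0.24 (adjusted p = 0.395) with arrays scaled to medians, and its adjusted p was 0.0651 without background correction. The membrane-bound Mgst2 stood at 1.29 ± 0.29 in Mss4d and did not pass (adjusted p = 0.0539).

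In glutathione synthesis and turnover, the list without Gclc, 5 of 15 tested genes rose in BDIV and 0 fell (median 0.51), and in Mss4a and Mss4d 0 passed. Ggt7, of the gamma-glutamyltransferase family, rose in BDIV by 1.70 ± 0.34, Chac1, which degrades glutathione, by 1.42 ± 0.21, the glutaredoxin gene Glrx by 1.26 ± 0.29, and Hagh, a hydrolase of the glyoxalase system, by 1.04 ± 0.22; the fifth was Glrx2. Chac1 was above background on 4 of 8 arrays. Of 10 genes for glutathione peroxidases, superoxide dismutases and catalase 1, Gpx2, rose in each of the 3 strains against BDIX and 0 fell. Gpx2 read 7.10 and 8.39 in BDIX and between 9.84 and 10.96 in the 6 other pools. Its call was lost in BDIV without the BDIV female array (limma adjusted p = 0.0830), in Mss4a without the Mss4a female (0.0607) or BDIX female array (0.0707), and in Mss4d without the Mss4d male (0.0797) or BDIX female array (0.120). Catalase, Cat, stood at -0.83 ± 0.27 in BDIV, Sod2 at -0.89 ± 0.29 in Mss4d and Gpx8 at -0.43 ± 0.21 in BDIV, none past the threshold.

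Of 11 thioredoxin and peroxiredoxin genes 2 rose in BDIV and 0 fell (median -0.010), both mitochondrial or partly mitochondrial peroxidases, Prdx3 (0.71 ± 0.19) and Prdx5 (0.90 ± 0.25, adjusted p = 0.0656 with the authors' values). Txnip and Prdx6 stood at -0.48 ± 0.20 and -0.42 ± 0.23 there and did not pass. Of 18 quinone, carbonyl and epoxide genes 2 rose in BDIV, Akr7a2 and Cbr4 (the latter at an adjusted p of 0.0525 with the authors' values), and 1 fell. The retinaldehyde dehydrogenase gene Aldh1a1 fell by 1.15 (SE 0.28), a call lost with arrays scaled to medians (adjusted p = 0.0637) and with the authors' values (0.0826). In Mss4a 1 of these 18 fell, the quinone oxidoreductase gene Cryz (-0.99 ± 0.21, above background on 5 of 8 arrays). Akr1a1 and Akr7a3 stood at 0.59 ± 0.18 and 0.78 ± 0.24 in BDIV and did not pass.

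Of 10 genes of haem breakdown and iron storage 1 rose and 1 fell in BDIV: the biliverdin reductase gene Blvra rose by 1.03 ± 0.23, and Hp, which encodes the haemoglobin-binding haptoglobin, fell by 2.21 (SE 0.44). Blvrb stood at 1.18 ± 0.36 and did not pass. Granulocyte markers also fell in BDIV against BDIX (3 of 8 tested, 0 rose, median -2.25), and the part of these cells in the Hp values was not tested. In Mss4d the haem transporter gene Slc48a1 fell by 1.04 (SE 0.20), a call lost with arrays scaled to medians (adjusted p = 0.0724). Of 4 tested genes of NADPH supply 0 passed against BDIX in any strain, by limma, and Pgls, Me1, Idh1 and Taldo1 lay between -0.85 and 0.66.

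Of 7 tested genes of NRF2 control 1 rose and 2 fell in BDIV. Nfe2l2 read 11.35 and 10.97 in BDIX, 10.43 and 10.28 in Mss4a, 10.40 and 10.47 in Mss4d, and 10.08 and 10.05 in BDIV, so that both BDIX pools were above the 6 others. It fell in BDIV by 1.10 (SE 0.19, limma adjusted p = 0.0123) and in Mss4a by 0.80 (SE 0.19, adjusted p = 0.0421), and stood at -0.73 ± 0.19 in Mss4d (adjusted p = 0.0739). The fall in Mss4a passed in 0 of the 8 fits that leave out 1 array (adjusted p between 0.0509 and 0.142), and that in BDIV did not pass without the BDIV female (0.148), BDIV male (0.0924) or BDIX female array (0.0729). Cul3, a scaffold of the ligase that marks NRF2 for degradation, fell in BDIV by 0.84 (SE 0.22), a call lost with arrays scaled to medians (adjusted p = 0.0791) or with the authors' values (0.0622). Mafg, a partner of NRF2 on DNA, rose by 0.78 ± 0.19, while Mafk stood at -0.51 ± 0.21.

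Of 9 tested genes of conjugation and export 1 rose in BDIV, the methyltransferase gene Nnmt (1.27 ± 0.34, adjusted p = 0.0565 with the authors' values), and 1 in Mss4a, Abcc3, an exporter of conjugates (1.18 ± 0.22, adjusted p = 0.129 with arrays scaled to medians). Abcc1 and Abcc5 lay between -0.51 and 0.16 and did not pass. Of 8 cytochrome P450 and aryl hydrocarbon receptor genes 4 fell in BDIV and 0 rose (median -0.74): Cyp1b1, which activates polycyclic carcinogens, by 1.59 (SE 0.19), Cyp2j3 by 1.08 (SE 0.18), Cyp20a1 by 0.72 (SE 0.19) and Arnt, the receptor's partner, by 0.73. Cyp20a1 was lost with arrays scaled to medians (adjusted p = 0.0585) and with the authors' values (0.0565), and Arnt, above background on 3 of 8 arrays, without background correction (0.0711). Ahr, the receptor itself, fell in Mss4d by 1.26 (SE 0.24) and stood at -0.74 ± 0.24 in BDIV.

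**Figure D4:**
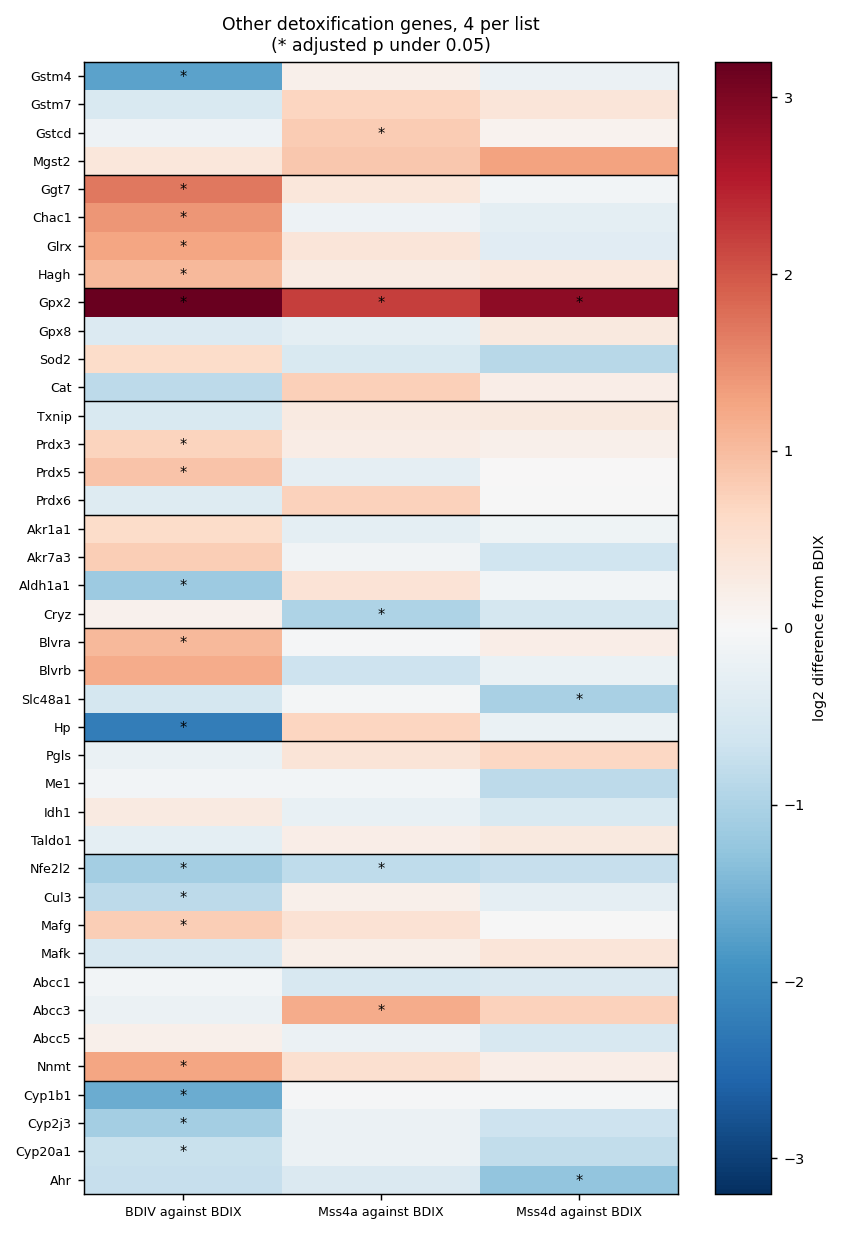
Log2 difference from BDIX (colour) in BDIV, Mss4a and Mss4d (columns) for the 4 genes of each of 10 detoxification lists that varied most over strains (rows, with lines between lists), with stars for an adjusted p under 0.05. Gpx2 is starred in all 3 columns, and most other stars stand in the column of BDIV.

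Gclc and Gstm2 had similar profiles over the 8 arrays (Pearson r = 0.90), as did Gstt1 and Nqo1 (r = 0.90), while Gsto1 ran against Gclc (r = -0.82). They were picked as the 2 highest and the lowest r of 55 pairs of tested member probes. These correlations describe 8 arrays of 4 strains and share the strain means. Over all tested probes with a symbol the genes most like Gclc were Ssrp1, Dennd2b and Kmt5c (r between 0.992 and 0.995), those most like Gstm2 were Mccc1, Rad52 and Slc12a8 (0.979 to 0.980), and those most like Nqo1 were Abcg3l4, Ldhd and Ovca2 (0.984 to 0.988). Gstt1 was closest to Gar1, Ccl19 and Rps6kb2 (0.975 to 0.978), and the second Gstp1 probe to Cox19, Ebna1bp2 and Ccdc93 (0.982 to 0.989).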

How the data were processed

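RNA of 8 nerve pools, 1 per strain and sex, was read on RatRef-12-v1 arrays with GenomeStudio 2010, per the labels. The deposited values are linear bead intensity per probe, with no scaling between arrays by the authors, and each has a deposited detection p-value. The authors' value table is also linear intensity: its columns were linear functions of the deposited signals (largest residual 0.0143), with values below 0, and its background and scaling options are not given in the sources used here.

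In R 4.3.3 with limma 3.58.1, neqc (offset 16) modelled background from the detection p-values and quantile normalized log2 values. Of 22523 probes 13793 had 1 gene symbol and 8730 none in the platform annotation, and 13752 were matched to GRCr8 by gene identifier. The 13114 probes above background (detection p under 0.05) on 2 or more arrays were tested. limma was fitted with strain and sex over all 8 arrays, with 3 residual degrees of freedom, and p-values (two-sided) were Benjamini-Hochberg adjusted per comparison, 7 in all. With 1 pool per strain and sex, the residual holds array noise and any interaction of strain with sex, so p-values measure only the spread between these pools, and the number of arrays limits the precision. A gene is counted by its probe with the highest mean. All members were named, and of each other list the 4 tested genes with the largest F over strains, while Gclm, Glrx2, Akr7a2, Cbr4 and Arnt were named after their values were seen. Likeness was Pearson r over 8 arrays, with 3 genes per member that passed. The fit was also run on simulated data with independent normal noise. The simulated arrays held no brightness difference, other tissue or interaction of strain with sex, so that run did not test for them. Members and lists were chosen with earlier results of the nerve arrays known.

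Alternatives were no background correction, arrays scaled to medians, the authors' values (under 16 set to 16), all probes unfiltered, a stricter filter (p under 0.01 on every array), only the 4 arrays compared, and leaving out each array. Leaving out both arrays of a congenic strain, and single arrays for the list genes, was chosen after seeing the data.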

Additional observations from a re-analysis of the deposited data

Results flagged for a closer look

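In 8 cases a member's strain difference had opposite signs in the female and the male pools, with both sizes over the median residual SD of 0.217. Each sex had 1 array per strain, so the difference between the sexes was not tested. In the brighter Gstp1 probe BDIV against BDIX was 0.56 in females and -0.41 in males, Mss4a against BDIX 0.65 and -0.31, and Mss4d against BDIX 0.75 and -0.38. Gsto1 in Mss4d against BDIX was 0.61 in females and -0.44 in males, Gstt1 in BDIV against BDIX 0.59 and -0.50, and Gclc in Mss4d against BDIX -0.41 and 0.37. All 6 of these involve the BDIX pair, in which male minus female was 0.79 for Gstp1, 0.61 for Gsto1, 0.81 for Gstt1 and -0.55 for Gclc. Mgst1 in Mss4a against Mss4d was 0.29 in females and -1.12 in males. Hmox1 in BDIV against Mss4a was 0.58 in females and -0.65 in males. No cause was tested for these differences.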

How the results depend on the processing

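In a comparison of strains, the filters, the fit of the 4 arrays alone and the fits without arrays of other strains keep the size of a difference. Such fits could not change a sign, but they are counted among the fits below. Of 77 differences of the 11 tested probes 14 passed, and 13 of these kept their sign in every setting run, with Nqo1 in BDIV against Mss4a at 0.021 with arrays scaled to medians as the exception. Of the 63 others 42 changed sign in some setting, in 67 of 943 fits without passing, 28 fits passed with the same sign, and 7 passed with the opposite sign, all with arrays scaled to medians. In Mss4a against Mss4d these were Gclc (-0.64), Gstm1 (-0.84), Gsto1 (-0.96), Gstt1 (-0.78) and Nqo1 (-0.80), and in BDIV against Mss4a Gstm1 (0.76) and Gstt2 (0.63). That scaling sets each array's median equal, and it placed the median of all probes at -0.65 in Mss4a against Mss4d and 0.46 in BDIV against Mss4a. It raised the probes called in Mss4a against BDIX from 1605 (39.1% higher) to 3994 (4.43% higher), in Mss4d against BDIX from 700 (25.9% higher) to 2723 (71.9% higher), and in Mss4a against Mss4d from 160 to 6669 (24.4% and 1.77% higher). The share higher also moved in BDIV against BDIX (47.6% to 62.5%), BDIV against Mss4a (49.1% to 87.7%) and BDIV against Mss4d (50.4% to 39.4%), and with the authors' values it was 65.7% in Mss4a and 45.8% in Mss4d against BDIX and 13.6% in Mss4a against Mss4d. Members called became 1 in Mss4a against BDIX, 5 in Mss4d against BDIX and 9 in Mss4a against Mss4d. In Mss4a against Mss4d 104 probes passed without background correction, 22 with the authors' values, 21 with no filter, 249 with detection on all 8 arrays and 0 with the 4 arrays alone. In Mss4d against BDIX 303 probes passed with no filter and 110 with the 4 arrays alone, with 2 members under detection on all 8 arrays and 0 with the 4 arrays alone. In Mss4a against BDIX 1 member passed with no filter. Leaving out each array gave between 14 and 2781 probes in BDIV against BDIX (0 to 4 members), 0 and 1241 in Mss4a against BDIX (0 to 2), 0 and 1177 in Mss4d against BDIX (0 to 2), 0 and 252 in Mss4a against Mss4d, 460 and 4876 in BDIV against Mss4a (1 to 4), and 485 and 4325 in BDIV against Mss4d (0 to 4). With both Mss4a or both Mss4d arrays left out, no count of members changed. The cause of these changes was not tested beyond the fewer arrays. Only the third Gstp1 probe was left untested for low signal, since 11 of 12 probes were above background on all 8 arrays. Signals were also low for the second Gstp1 probe in Mss4a (193 and 162) and for Gstt1 in BDIX, Mss4a and BDIV (between 167 and 274). Without background correction their differences of Mss4a from BDIX were -1.35 and 0.93, beside -1.62 and 1.23 with it. No separate paired analysis was run, because the replicates of a strain are its sexes. Sex is a term of the fit, which thus already matches the pools of 2 strains by sex. A slide block was not run, since no slide is named in the column headers.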
